A study of Mus musculus with 8 samples.

Results

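The genes described here encode the TGF-beta ligands Tgfb1, Tgfb2 and Tgfb3, the receptors Tgfbr1, Tgfbr2 and Tgfbr3, and the latent TGF-beta binding proteins Ltbp1, Ltbp2, Ltbp3 and Ltbp4. They were found on the array as the probe sets, groups of short probes against 1 or more transcripts, whose platform annotation gave exactly 1 of these symbols. This left 24 of 45101 probe sets, which cover all 10 genes, of 18193 genes with such a probe set: 7 probe sets for the ligands, 8 for the receptors and 9 for the latency proteins. RNA came from primary rib chondrocytes, the cells of cartilage, of FVB mouse embryos at E18.5, counted in days from the vaginal plug, freed by collagenase and trypsin and passed through a cell strainer. Controls were wild type and the other embryos carried a Hoxc8 transgene. The labels used here do not name the promoter of the transgene or the number of embryos in a sample. Each of 4 litters gave 1 control and 1 transgenic sample, so that 8 samples were measured, 4 for each genotype, and litters are numbered 1 to 4 here after the replicate numbers of the labels.

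TGF-beta ligands are made as precursors whose propeptide stays bound to the mature ligand and keeps it inactive. Latent TGF-beta binding proteins attach this latent complex to the extracellular matrix, from which integrins, proteases or thrombospondin release the ligand. The free ligand binds the type II receptor Tgfbr2, often with help of the co-receptor Tgfbr3 (betaglycan), and the kinase of the type I receptor Tgfbr1 then phosphorylates Smad2 and Smad3. In cartilage the pathway is known for promoting the formation of chondrocytes and for holding back their hypertrophy.

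All 10 symbols were found in the RefSeq gene table of assembly GRCm38.p6, where Tgfb1 and Ltbp4 both lie on chromosome 7, from 25687002 to 25705077 and from 27305140 to 27339720. Promoter windows of 250 bases before a transcript start were found in RefSeq (GRCm38.p6) for 8 of the 10 genes, 12 windows in all, with no entry for Tgfb3 and Tgfbr3. The windows printed below belong to Tgfb1 and Ltbp4, which were lowest on the same pair of arrays, and to Tgfbr2 and Ltbp1, which were highest on another pair. For Ltbp1 and Ltbp4, which have several starts in that table, the window of the one farthest upstream is shown. Which start these cells used was not measured. The windows lie at chr7:25686752-25687001 on the plus strand (Tgfb1), chr7:27337613-27337862 on the minus strand (Ltbp4), chr9:116175364-116175613 on the minus strand (Tgfbr2) and chr17:75005279-75005528 on the plus strand (Ltbp1). They are written 5′ to 3′ along the gene, and capitals mark the GC box GGGCGG and the homeodomain core TAAT on either strand.
Tgfb1: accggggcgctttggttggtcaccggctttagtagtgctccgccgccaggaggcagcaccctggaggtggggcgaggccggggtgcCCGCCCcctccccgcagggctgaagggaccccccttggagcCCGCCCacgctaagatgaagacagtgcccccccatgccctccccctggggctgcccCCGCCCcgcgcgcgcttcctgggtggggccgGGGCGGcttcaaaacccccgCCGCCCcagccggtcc
Ltbp4: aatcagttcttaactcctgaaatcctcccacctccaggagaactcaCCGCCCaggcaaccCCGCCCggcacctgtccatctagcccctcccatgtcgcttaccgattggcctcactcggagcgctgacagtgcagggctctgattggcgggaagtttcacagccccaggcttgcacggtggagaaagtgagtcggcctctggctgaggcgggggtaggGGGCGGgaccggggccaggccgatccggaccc
Tgfbr2: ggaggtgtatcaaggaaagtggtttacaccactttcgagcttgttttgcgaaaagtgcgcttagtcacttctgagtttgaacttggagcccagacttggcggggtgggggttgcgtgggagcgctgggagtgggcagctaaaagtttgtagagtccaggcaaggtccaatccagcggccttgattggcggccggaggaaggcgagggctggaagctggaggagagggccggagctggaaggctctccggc
Ltbp1: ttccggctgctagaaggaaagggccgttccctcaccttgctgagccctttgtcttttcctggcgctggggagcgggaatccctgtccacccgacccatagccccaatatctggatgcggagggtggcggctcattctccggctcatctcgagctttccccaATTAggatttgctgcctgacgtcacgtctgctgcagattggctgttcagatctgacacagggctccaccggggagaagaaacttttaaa
The window of Tgfb1 holds 5 GC boxes and is 75.2% G or C, and that of Ltbp4 holds 3 and is 64.4% G or C. Neither holds the TAAT core. The Ltbp1 window holds 1 TAAT core and no GC box, and the Tgfbr2 window holds neither. Of all 32851 promoter windows of this length, 32.7% hold a GC box and 54.9% the TAAT core. The other members did not divide in the same way. Tgfb2 and Ltbp3, also lowest in litter 4, have no GC box and 1 and 2 TAAT cores, while Ltbp2 and the upstream start of Tgfbr1, highest in litter 3, have 2 GC boxes each. A match of letters is a description of the window and not a binding site.

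The median signal of an array was 107 at the lowest and 121 at the highest. All 10 chondrocyte markers, among them Col2a1, Acan and Sox9, passed the signal filter, as did all 10 skeletal muscle markers and 9 of 10 of perichondrium or fibroblasts, so passing it does not set cartilage apart. The summed signal of the chondrocyte markers lay between 268942 and 339710 in controls and between 273276 and 302145 in transgenic samples. The sum of the muscle markers lay between 26586 and 42057 and that of the perichondrium and fibroblast markers between 143053 and 182977. In such mixed samples fewer cells of a type and less RNA per cell cannot be told apart. The targeted gene, Hoxc8, differed by 0.15 log2 between genotypes (SE 0.12, 95% interval -0.11 to 0.41, limma adjusted p = 0.9998), so the array did not separate the genotypes by it.

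The first question was whether the Hoxc8 transgene altered the level of these genes. None of the 10 genes passed the test between genotypes (limma, Benjamini-Hochberg adjusted p = 0.9998 for each), and 0% of the 10979 genes tested passed. The fitted differences of the 10 genes, on the scale of log2(signal + 22.2), lay between -0.25 and 0.15 log2 with a median of -0.08; 3 were positive and 7 negative. Over all genes tested the median was 0.00 and 49.3% were negative. At an unadjusted threshold of 0.05, 0 of the 10 genes and 115 of all genes (1.05%) passed, and with the litter as a block 0 of the 10 genes passed at the adjusted threshold. That block, which takes up the pairing by litter, lowered the SEs of the 10 genes. They lay between 0.13 and 0.29 without it and between 0.07 and 0.13 with it. SEs and intervals below are without the block unless it is named. Control and transgenic signals overlapped for each of the 10 genes, while 0.984% of all genes did not overlap. Of the 24 probe sets, 19 had a mean signal of at least 110 and were tested. The 5 dimmer ones, of Tgfbr2, Ltbp1 and Ltbp3, had fitted differences between -0.19 and -0.03 log2 with SEs between 0.26 and 0.41 and were not tested.

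**Figure D1:**
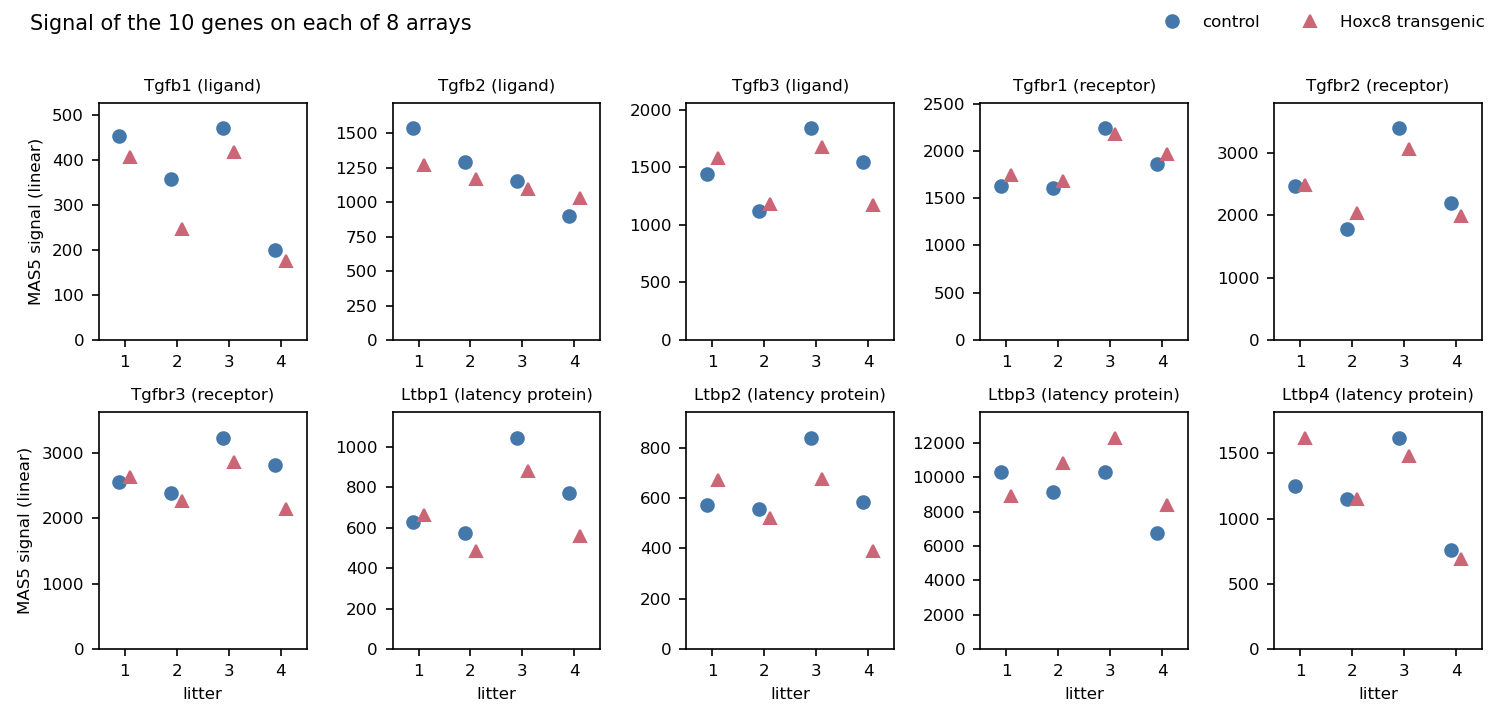
MAS5 signal (linear axis from 0) of each gene's brightest probe set in the 4 litters, with control samples as circles and transgenic samples as triangles; each point is 1 array. Tgfb1 and Ltbp4 are lowest in litter 4 in both genotypes, 200.5 and 175 for Tgfb1, and Tgfbr2 is highest in litter 3, at 3397 and 3069.

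Among the ligands, Tgfb1, the form first found in platelets and abundant in bone matrix, gave signals of 453, 358, 469.7 and 200.5 in the controls of litters 1 to 4. The transgenic samples of the same litters gave 407, 247, 417 and 175. The transgenic sample was thus the lower one in each of the 4 litters, which was also the case, or the reverse case, for 10.7% of all genes. The means were 370.3 ± 123 (SD, n = 4) in control and 311 ± 119.9 (SD, n = 4) in transgenic samples. Transgenic minus control, the model gave -0.25 log2 (SE 0.29, 95% interval -0.88 to 0.38, that is 0.545-fold to 1.3-fold), and it was not called (limma adjusted p = 0.9998). With the litter as a block the SE was 0.13 and the interval -0.53 to 0.03. The difference was -0.50 log2 without control replicate 4 and -0.02 without transgenic replicate 4. A second Tgfb1 probe set, with a mean signal of 127, differed by -0.24 log2 (SE 0.20).

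Tgfb2, a ligand of the growth plate and perichondrium, gave 1535, 1289, 1156 and 901 in the controls of litters 1 to 4 and 1267, 1172, 1094 and 1032 in the transgenic samples. The groups overlapped, with the control of litter 4 below every other sample. They differed by -0.07 log2 (SE 0.15, 95% interval -0.40 to 0.25). The other 3 tested probe sets of Tgfb2 differed by -0.01, 0.00 and -0.02 log2. Tgfb3, the third ligand, gave 1439, 1116, 1836 and 1547 in controls and 1579, 1182, 1673 and 1169.9 in transgenic samples. Its transgenic sample was higher in litters 1 and 2 and lower in litters 3 and 4, and the fitted difference was -0.08 log2 (SE 0.16, 95% interval -0.44 to 0.28).

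Among the receptors, Tgfbr1, the type I receptor kinase, gave 1628, 1609, 2236 and 1863 in controls and 1749, 1677, 2178 and 1962 in transgenic samples. It was higher in the transgenic sample of 3 litters, by at most 0.10 log2, and the fitted difference was 0.05 log2 (SE 0.13, 95% interval -0.23 to 0.33). Tgfbr2, the type II receptor that binds the ligand, gave 2478, 1786, 3397 and 2198 in controls and 2482, 2036, 3069 and 1998 in transgenic samples. Both groups had their highest value in litter 3, and the means were 2465 ± 683 (SD, n = 4) without and 2396 ± 499 (SD, n = 4) with the transgene. The difference came to -0.02 log2 (SE 0.19, 95% interval -0.43 to 0.38). A dimmer probe set of Tgfbr2, with a mean signal of 151, differed by 0.52 log2 (SE 0.46), the opposite sign, and was higher in the transgenic sample of all 4 litters, by 0.05, 0.41, 0.64 and 0.99 log2. With the litter as a block its SE was 0.22. It was then the only one of the 19 tested probe sets with an unadjusted p under 0.05, and it was not called (limma adjusted p = 0.9998). Because of this probe set the mean over both tested probe sets gave 0.25 log2 (SE 0.27). Tgfbr3, the co-receptor betaglycan, gave 2555, 2394, 3235 and 2813 in controls and 2631, 2265, 2868 and 2141 with the transgene. It differed by -0.15 log2 (SE 0.13, 95% interval -0.43 to 0.13), and a second probe set stood at -0.14 log2.

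Among the latency proteins, Ltbp1, which binds the latent complexes of all 3 ligands, gave 629, 574, 1045 and 770.2 in controls and 663, 485, 879 and 557 in transgenic samples. The transgenic sample was lower in 3 of 4 litters, and the fitted difference was -0.21 log2 (SE 0.20, 95% interval -0.65 to 0.23). With the litter as a block its interval was -0.44 to 0.02. Ltbp2, the member of the family that does not bind latent TGF-beta, gave 573, 555, 839.7 and 585 in controls and 671, 521, 677 and 389 with the transgene. The highest value was that of the control in litter 3, and the difference came to -0.18 log2 (SE 0.19, 95% interval -0.59 to 0.22).

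Ltbp3, a latency protein known from the growth plate, gave 10326, 9149.9, 10329 and 6756 in controls and 8899, 10825, 12313 and 8375 in transgenic samples. Its transgenic sample was higher in litters 2, 3 and 4 and lower in litter 1, with a fitted difference of 0.15 log2 (SE 0.15, 95% interval -0.19 to 0.48). A second bright probe set of Ltbp3 stood at 0.01 log2 (SE 0.20). Ltbp4, which binds the latent complex of Tgfb1 and acts in elastic fibre assembly, gave 1246, 1148, 1618 and 756 in controls and 1620.4, 1153, 1477 and 692 with the transgene. Both samples of litter 4 lay below the other 6, and the genotypes differed by 0.03 log2 (SE 0.26, 95% interval -0.53 to 0.59). Blocked by litter, the intervals were -0.18 to 0.24 for Ltbp4, -0.03 to 0.33 for Ltbp3 and -0.46 to 0.09 for Ltbp2. For the receptors they were -0.11 to 0.21 (Tgfbr1), -0.19 to 0.15 (Tgfbr2) and -0.33 to 0.03 (Tgfbr3). For Tgfb2 and Tgfb3 they were -0.27 to 0.13 and -0.29 to 0.13.

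**Figure D2:**
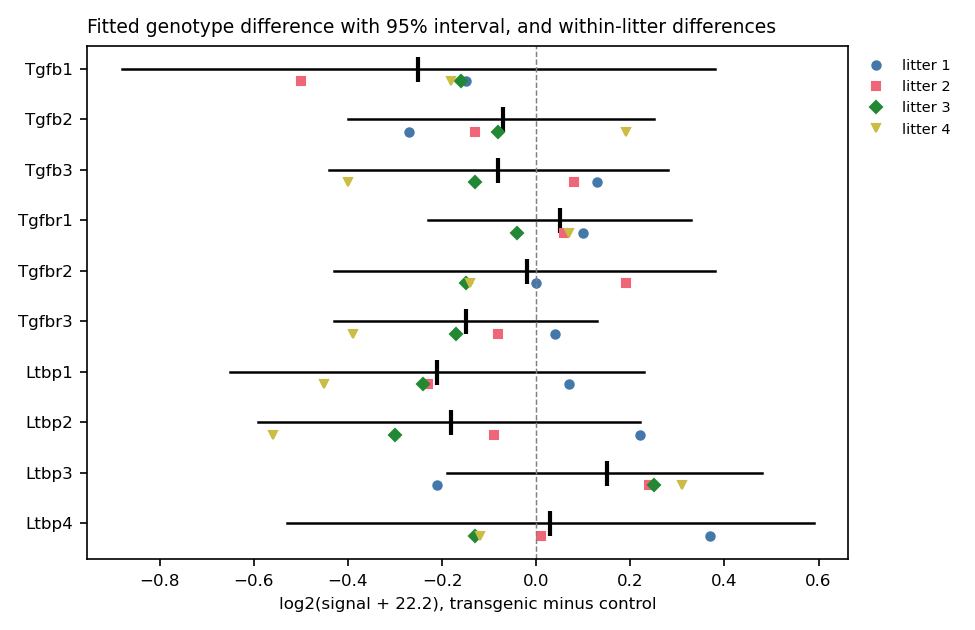
Fitted transgenic minus control difference of each gene (vertical tick) with its 95% interval (line) on the log2(signal + 22.2) scale, and below it the difference within each of the 4 litters (coloured symbols). Each interval includes 0, and the widest belongs to Tgfb1, from -0.88 to 0.38. The intervals are from the fit without the litter as a block.

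The second question was how far these genes differed between litters, with the genotype in the model. Of the 10 genes, 7 differed between the 4 litters (limma moderated F-test, adjusted p between 0.00152 and 0.0429), where 14.1% of all 10979 genes passed. They were Tgfb1, Tgfb3, Tgfbr1, Tgfbr2, Ltbp1, Ltbp3 and Ltbp4, while Tgfb2, Tgfbr3 and Ltbp2 did not pass (adjusted p = 0.064, 0.112 and 0.0908). Each of these 3 passed in 3 of 22 other fits: Tgfb2 with the stricter filter, median centring or without transgenic replicate 4 (adjusted p between 0.0412 and 0.0475), Tgfbr3 with the mean over its probe sets (adjusted p = 0.0222) or without control replicate 4 or litter 1, and Ltbp2 without control replicate 1 or 4 or litter 1. The median distance between the highest and the lowest litter was 0.62 log2 over the 10 genes, and 0.37 over all genes tested. Among the probe sets, 8 of the 19 tested passed, where 9.07% of all probe sets did. In that fit, adjusted over 22495 probe sets, the bright probe sets of Tgfb3 and Tgfbr1 did not pass (adjusted p = 0.0636 and 0.0656). The stricter filter left 12 of the 19, of which 8 passed, as did 2305 of 11225 probe sets in all. Adjusted p-values below are from the fit over genes for a gene's brightest probe set and from the fit over probe sets for any other. This count depended on how the spread was estimated: without the intensity trend in the moderation, 1 of the 10 genes (Tgfb1, limma adjusted p = 0.0447) and 71 of all genes passed, and the lowest unadjusted p of the 10 genes was 0.000254. Each litter holds 2 arrays, and single arrays mattered. Without control replicate 2 or 3 the count of the 10 genes was 3 and 2, without transgenic replicate 2 or 3 it was 3 each, without litters 2, 3 or 4 it was 3, 2 and 4, and without the signal filter it was 4.

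By the brightest probe set, Tgfb1 and Ltbp4 had the widest distance between litters of the 10 genes. With the mean over probe sets Tgfbr2 was widest, at 1.15 log2, and Tgfb1 stood at 0.54. Ltbp4 had litter means of 1433, 1150.4, 1548 and 724 in litters 1 to 4, a 2.1-fold distance on the fitted scale (limma adjusted p = 0.00152). Tgfb1 had litter means of 430.1, 303, 443 and 188, a 2.22-fold distance (adjusted p = 0.00414). Both genes were high in litters 1 and 3, intermediate in litter 2 and lowest in litter 4. Relative to its mean over litters, litter 4 stood at -0.67 log2 for Ltbp4 and at -0.72 for Tgfb1. Without litter 4 neither passed (adjusted p = 0.136 for Ltbp4 and 0.123 for Tgfb1), and both passed when any other litter or any single array was left out. The dimmer probe set of Tgfb1 did not follow this order: its litter deviations lay between -0.17 and 0.13 log2, with litter 4 highest (adjusted p = 0.816). The mean over both Tgfb1 probe sets did not pass (adjusted p = 0.191).

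Ltbp3 was also lowest in litter 4. Its litter means were 9613, 9988, 11321 and 7566 (1.5-fold, limma adjusted p = 0.0276), and its second bright probe set had both samples of litter 4 lowest as well, at 1877 and 1697 (adjusted p = 0.00292). For the brightest probe set the call was lost without control replicate 2, 3 or 4, without transgenic replicate 2 or 3, and without litter 2, 3 or 4 (adjusted p between 0.0501 and 0.365). For Tgfb2 the brightest probe set had litter means of 1401, 1231, 1125 and 966, which did not pass. A second Tgfb2 probe set passed (adjusted p = 0.0294), and litter 4 was lowest there too. For 4 of the 10 genes, Tgfb1, Tgfb2, Ltbp3 and Ltbp4, the 2 lowest arrays were both of litter 4, as they were for 11.4% of all genes.

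Tgfbr2, Ltbp1, Tgfb3 and Tgfbr1 were highest in litter 3. Tgfbr2 had litter means of 2479.9, 1911, 3233 and 2098 (1.68-fold, limma adjusted p = 0.00383), and both samples of litter 3, at 3397 and 3069, lay above the other 6, whose highest was 2482. Ltbp1 had litter means of 646, 529.6, 962 and 664 (1.78-fold, adjusted p = 0.0147), with litter 2 lowest. Tgfb3 had litter means of 1509, 1149, 1754 and 1358 (1.52-fold, adjusted p = 0.0421) and Tgfbr1 of 1688, 1643, 2207 and 1913 (1.34-fold, adjusted p = 0.0429). Without litter 3 none of these 4 passed (adjusted p between 0.144 and 0.384). Tgfbr2 was also lost without control replicate 3 (adjusted p = 0.065), Ltbp1 and Tgfb3 without litter 2 or any single array of litters 2 and 3 (adjusted p between 0.0578 and 0.203), and Tgfbr1 without litter 2 or any single array other than control replicate 4 (adjusted p between 0.0539 and 0.262). The mean over the 3 probe sets of Tgfbr1 did not pass (adjusted p = 0.309). For 6 of the 10 genes, these 4 with Tgfbr3 and Ltbp2, the 2 highest arrays were both of litter 3, as they were for 8.58% of all genes. All 7 genes that passed had their highest fitted litter mean in litter 3, against 30.6% of the 1550 genes that passed. Their lowest was in litter 4 for 3 of the 7 (42.9%), close to the 40.6% of the 1550. The counts of litters 3 and 4 were chosen after the values were seen and describe these arrays.

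**Figure D3:**
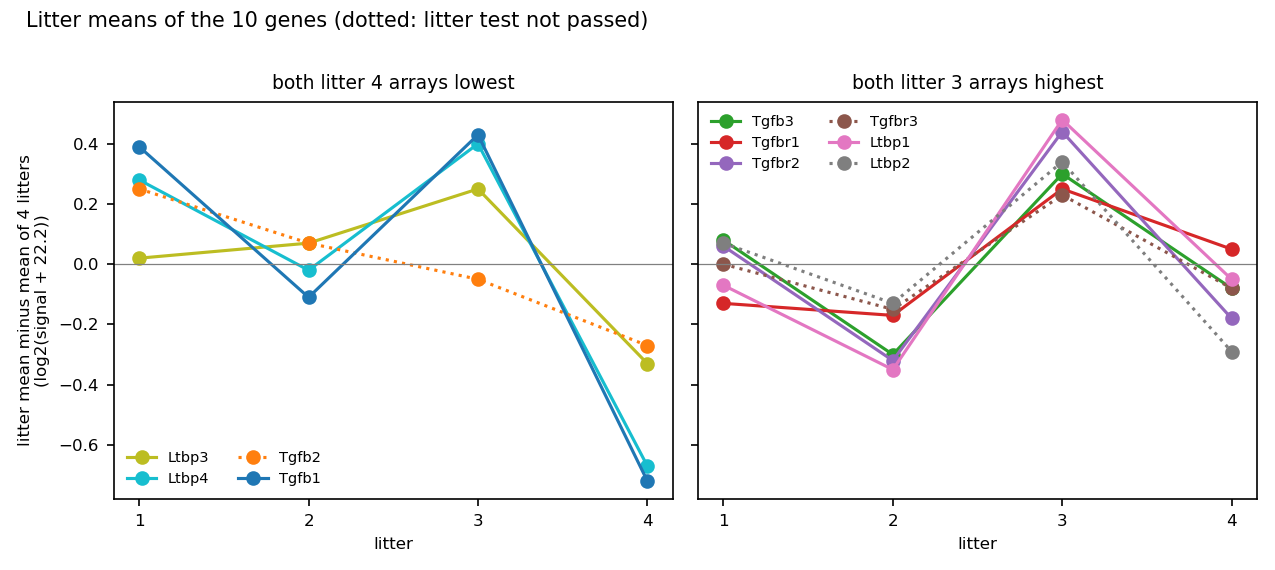
Litter mean minus the mean of the 4 litters for each gene, in log2(signal + 22.2); left, genes whose 2 lowest arrays were both of litter 4, right, genes whose 2 highest arrays were both of litter 3. Solid lines passed the litter test and dotted lines did not; lines only join the points of a gene. Litter 4 stands at -0.72 for Tgfb1 and -0.67 for Ltbp4, and litter 3 at 0.48 for Ltbp1.

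**Figure D4:**
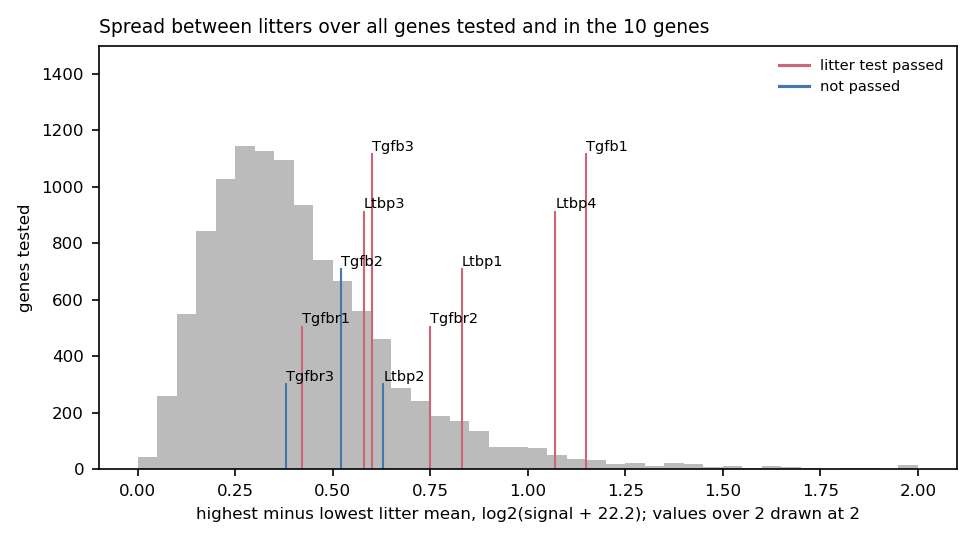
Histogram of the distance between the highest and the lowest litter mean over all 10979 genes tested (log2, bin height is the number of genes), with a vertical line for each of the 10 genes; line heights only separate the names. Tgfb1 at 1.15 and Ltbp4 at 1.07 lie above 98.3% and 97.8% of genes, and Tgfbr3 at 0.38 lies near the middle.

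The probe sets of a gene did not always follow the same litters. For Tgfbr2 the dim probe set gave 22.8 and 67.2 in litter 4 against 140 to 231 on the other arrays (limma adjusted p = 0.00966), while the bright one was lowest in litter 2. For Tgfbr1 the 2 dim probe sets were lowest in litter 4, at -0.59 and -0.34 log2, and the bright one stood at 0.05 there. For Tgfbr3 both probe sets were highest in litter 3, at 0.58 and 0.23 log2. The dim probe sets of Tgfbr1 and Tgfbr3 did not pass the litter test (adjusted p = 0.281 and 0.437 for Tgfbr1, 0.0554 for Tgfbr3). Signals of different probe sets cannot be set against each other as levels, and the parts of the transcripts that they cover were not examined.

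**Figure D5:**
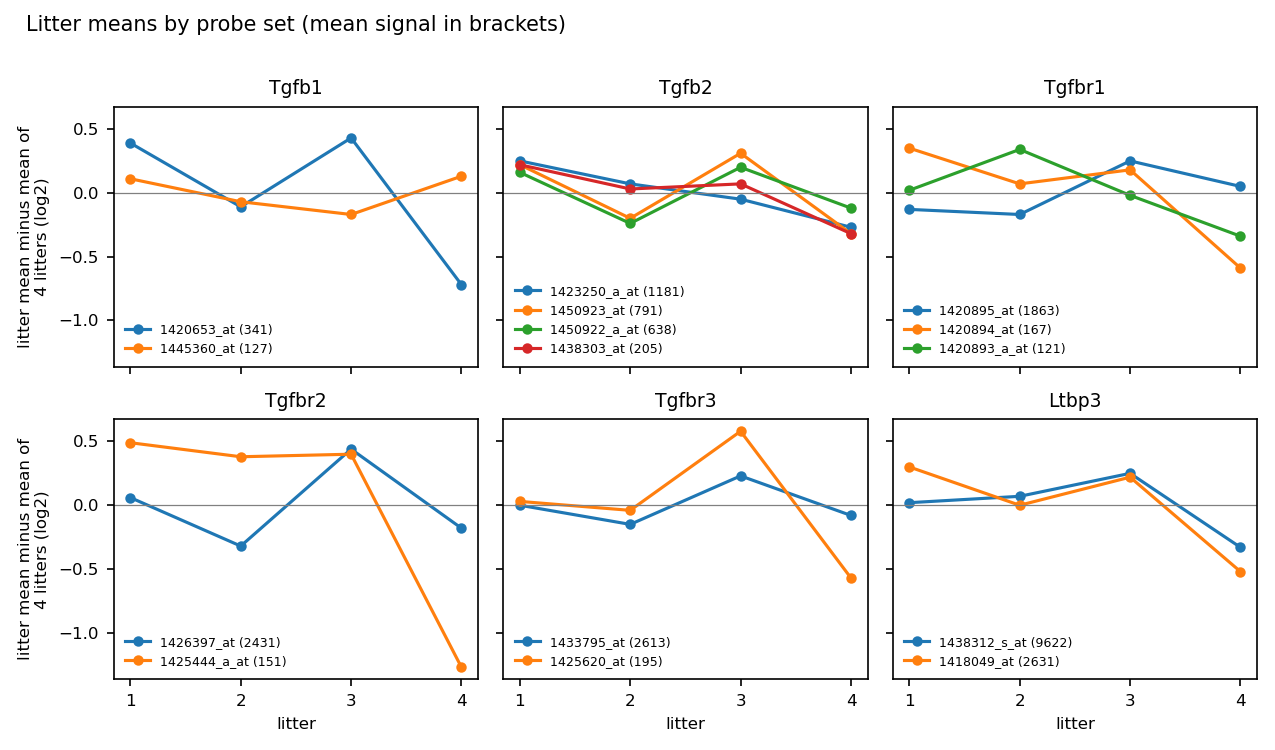
Litter mean minus the mean of the 4 litters (log2) for every tested probe set of the 6 genes with more than 1, named with its mean signal. The dim Tgfbr2 probe set reaches -1.27 in litter 4, where the bright one stands at -0.18.

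Other measures also moved with the litters. The ratio of 5-prime to 3-prime signal, a sign of RNA integrity, was lowest in litter 4, with 1.17 and 1.14 for Gapdh against 1.26 to 1.36 on the other arrays, and 0.512 and 0.475 for beta-actin against 0.59 to 0.647. The summed signal of 14 genes induced by tissue dissociation was highest in litter 2 (205791) and lowest in litter 4 (116222), and all 14 differed between litters. Over all genes tested, 14.1% differed between litters. Of the 14, 10 had their lowest fitted litter mean in litter 4, as 40.6% of all genes that passed had. This count by litter was also chosen after the values were seen. The sum of 10 skeletal muscle markers was 1.42 times as high in litter 4 as in litter 3, that of 10 perichondrium and fibroblast markers 0.862 times, that of 9 macrophage and osteoclast markers 0.764 times, that of 8 endothelial markers 0.679 times, that of 6 osteoblast markers 0.713 times, that of 8 smooth muscle and pericyte markers 0.935 times, that of 6 erythroid markers 1.7 times and that of 6 platelet markers 0.966 times. The chondrocyte sum stood at 0.985 times, but single chondrocyte markers moved. Of the 10, 3 passed the litter test: Col2a1, Acan and Sox9 (limma adjusted p = 0.0461, 0.00637 and 0.000416). Sox9 had litter means of 5269.7, 5392, 3527 and 3057, and Acan of 28769, 31329.8, 27682 and 21636. The sums follow their brightest genes and include markers below the signal filter. It was passed by 6 of 9 macrophage, 6 of 8 endothelial, 4 of 6 erythroid and 3 of 6 platelet markers. Alas2 made up most of the erythroid sum, with 2296 in litter 3 and 3974 in litter 4. Against their sums, Cd14 and Cd68 were higher in litter 4 than in litter 3, and Myh3, Myh8 and Myod1 lower. Lum and Scx of the perichondrium, Vwf of the endothelium and the platelet markers Itga2b, Ppbp and Treml1 were also higher. So were the smooth muscle markers Acta2, Tagln, Des, Myh11 and Rgs5 and the chondrocyte markers Col2a1, Col9a1, Col11a1, Hapln1 and Cnmd. From litter 3 to litter 4, Acta2 went from 4048 to 5217 and Cspg4, of the same list, from 4446 to 2544. The part of the RNA ratios, dissociation genes and marker sums in the litter differences was not tested.

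The other genes of the pathway were read from 4 lists with 66 genes outside the 10, of which 62 had a probe set with 1 symbol and 57 passed the signal filter. Between genotypes 0 of the 57 passed in either direction (limma), 30 differences were positive and 27 negative, and their median was 0.00 log2. Between litters 19 of the 57 passed, or 33.3%, where 14.1% of all genes did. Among brighter genes more passed, 1667 of 6678 with the stricter filter, and the 57 were not counted in that fit. Of 15 genes of activation and matrix storage, 5 differed between litters, all with their highest fitted litter mean in litter 3, as 30.6% of all genes that passed had: Thbs1, a thrombospondin that activates the latent ligand, the fibrillin gene Fbn2, Fbln5, Itgav, an integrin chain that binds the latent complex, and the protease gene Mmp14. For 2 of these 5 the lowest fitted litter mean was in litter 4, as it was for 40.6% of all genes that passed. Thbs1 had litter means of 13321, 12687, 13771 and 8991 (adjusted p = 0.00222). Fn1, the fibronectin gene, and Mmp2, a gelatinase gene, each stood at -0.07 log2 between genotypes and did not pass between litters. Adamtsl2 had the largest difference of the list, -0.36 log2 (SE 0.25).

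Of 15 co-receptors and receptor regulators, 3 differed between litters: Bambi, a decoy receptor, Cd109 and Tgfbrap1. Of these 3, 1 had its highest fitted litter mean in litter 3 and 0 had their lowest in litter 4. The proteoglycan genes Bgn, Dcn and Aspn, whose products bind TGF-beta, stood at 0.01, 0.00 and 0.20 log2 between genotypes (SE 0.10, 0.08 and 0.17), and Fstl3, a follistatin-like gene, at 0.28 (SE 0.24). Of 14 Smads and Smad partners, 3 differed between litters, Ski, Skil and Smurf2. The highest fitted litter mean was in litter 3 for 0 of these 3, and the lowest in litter 4 for 2. Smad4, the common partner Smad, stood at 0.02 log2, Skil, a Smad repressor, at 0.01, Smurf2, a ubiquitin ligase gene, at 0.02, and Tab1, of the Tak1 kinase complex, at -0.34 (SE 0.15), none of them called.

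Of 16 genes known to respond to TGF-beta, which here include Ltbp2, 0 passed between genotypes and 9 passed between litters: Bhlhe40, Ccn2, Col1a1, Junb, Pmepa1, Prg4, Skil, Tgfbi and Timp3. For 7 of the 9 the lowest fitted litter mean was in litter 4, which was the case for 40.6% of all genes that passed. The highest was in litter 3 for 4 of the 9, against 30.6%. These counts by litter in the pathway lists were chosen after the values were seen. Ccn2, the connective tissue growth factor gene, had litter means of 17655, 18393, 20202 and 13729.6 (limma adjusted p = 0.00394). Prg4, the lubricin gene of joint surfaces, had 739, 384, 1461 and 1098 (3.65-fold, adjusted p = 5.66e-05), and stood at -0.27 log2 between genotypes (SE 0.41). Col1a1, a fibrillar collagen gene of perichondrium and bone, had 22063, 19550.5, 24965 and 15984 (adjusted p = 0.0123). The related Col3a1 had 38143, 37968, 38582 and 36334 and did not pass (adjusted p = 0.83). The lists overlap: Skil and Smad7 are also among the Smads and their partners, Junb among the dissociation genes, Col1a1 and Col3a1 among the perichondrium markers, and Acta2 and Tagln among the smooth muscle markers. Skil therefore counts in both lists and once in the 19. Expression of these genes has many inputs besides TGF-beta, and the lists were written with earlier results of these data known.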

How the data were processed

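Signal was measured on 8 Affymetrix arrays. The submitters' processing notes name MAS5; its version is absent from the notes and labels used here. The deposited values are linear intensity signals, 1 per probe set and array, and on every array their mean after trimming 2% at each end was 500, so MAS5 had scaled the arrays before the authors deposited them. Symbols came from the platform annotation of 2016: 34945 probe sets had 1 symbol, 932 several and 9160 none.

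From these values log2(signal + 22.2) was computed, the offset being the 20th percentile, which understates changes of dim genes. Probe sets with a mean of at least 110, the median of probe set means, were tested, 22495 probe sets and 10979 genes, a gene being represented by its brightest probe set. Control probe sets were left out. Genotypes were compared with limma 3.58.1 in R 4.3.3 (lmFit, eBayes with intensity trend, no block) two-sided, and litters with a moderated F-test fitted together with genotype, both Benjamini-Hochberg adjusted over all features at 0.05. Each group's 4 arrays, or each litter's 2, limit the precision. The scripts were tested on simulated data.

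A replicate number marks a shared litter in the labels and so pairs a control with a transgenic sample. As a check, each array's deviation from its group mean was correlated over probe sets with that of its partner: r was 0.0253 in litter 1, 0.435 in litter 2, 0.376 in litter 3 and 0.38 in litter 4, so the pairing was not seen in litter 1. The members and lists were chosen with earlier results of these data known. Named genes are all 10 members and, of each pathway list, the 3 genes with the highest mean signal and the one with the largest genotype difference; those that passed the litter test were named after their values were seen. Of the 66 pathway genes, 4 have no single-symbol probe set here. Alternatives were the litter as a block, offsets of 1 and 100, no filter and a stricter filter (mean of 494), quantile normalization, median centring, no trend, robust moderation, array weights, the mean over a gene's probe sets, and leaving out each array or litter.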

Additional observations from a re-analysis of the deposited data

Results flagged for a closer look

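Each of the 24 probe sets was examined for a single sample far from the other 3 in controls and in transgenic samples, which makes 48 groups. By Dixon's 95% critical value 4 groups held such a sample. Chance gives about 2.4 if the 4 samples of a group share 1 distribution, which samples of different litters need not. Ltbp2 was 839.7 in the control of litter 3, with 585 next. In transgenic samples litter 3 was also highest, at 677, with 671 next. A dim probe set of Tgfbr1 was 149.6 in the control of litter 2, with 102 next. There litter 2 was also highest in transgenic samples, at 161, with 139.5 next. A probe set of Ltbp1 below the signal filter was 39.5 in the control of litter 2, with 8.15 next, and 25.8 in the transgenic sample of litter 1, with 6.13 next.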

How the results depend on the processing

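Between genotypes 0 of the 10 genes passed in the 23 other fits over genes and 0 probe sets in the 22 over probe sets, and 0 of 229 values of the 10 genes did; the stricter filter left 9 of the 10, without Tgfb1. With the litter as a replicate block, 0 of 22495 probe sets and 0 genes passed; 748 probe sets had an unadjusted p under 0.05 against 244 without the block, and the smallest adjusted p was 0.979. The block changed no other call. Of the 229 values, 19 of 5 genes had the opposite sign: Tgfb3 at 0.01 and Tgfbr2 at 0.01 with array weights, Tgfbr2 at 0.001 with median centring and at 0.25 with the mean over probe sets. Leaving out arrays or litters gave -0.21 to 0.04 for Tgfb2, -0.21 to 0.03 for Tgfb3, -0.02 to 0.15 for Tgfbr1, -0.16 to 0.14 for Tgfbr2 and -0.17 to 0.28 for Ltbp4. The other 5 kept their sign, with -0.50 to -0.02 for Tgfb1, -0.22 to -0.07 for Tgfbr3, -0.37 to -0.05 for Ltbp1, -0.32 to -0.02 for Ltbp2 and 0.01 to 0.27 for Ltbp3.

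The litter counts moved with the processing, and the cause was not tested. Without a filter 995 probe sets, 893 genes, 5 of the probe sets and 4 of the 10 genes passed. Without the intensity trend it was 0 probe sets, 71 genes, 0 of the probe sets and 1 of the 10 genes; at an unadjusted p under 0.05 it was 4914 probe sets and 12 of the 19. Leaving out single arrays or litters gave 548 to 3064 probe sets, 526 to 2182 genes, 3 to 11 of the 19 probe sets and 2 to 9 of the 10 genes. Under the other settings 6 to 8 of the 10 genes passed. Over the 22 litter fits Ltbp4 passed in 20, Tgfb1 in 19 of 21, Tgfbr2 in 19, Ltbp1 in 15, Tgfb3 in 14, Ltbp3 in 12, Tgfbr1 in 9, and Tgfb2, Tgfbr3 and Ltbp2 in 3 each. Depth is not defined for arrays; dim probe sets such as those of Tgfb1 and Tgfbr2 with mean signals of 127 and 151 lie close to the filter of 110.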

Other observations

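Genes whose log2 signals ran most closely with each of the 10 over the 8 arrays were listed by Pearson's r as a description, since arrays of a litter are not independent. The closest was Col8a1 for Ltbp1 (r = 0.994), followed by the tenascin gene Tnc (0.984). Vcan, the versican gene, was closest to Tgfb3 (0.993), Sbk1 to Ltbp4 (0.991), Mdfic to Tgfbr2 (0.988), Mthfd1l to Tgfb2 (0.987), Mfap2, a gene of a microfibril protein, to Tgfb1 (0.981), Rnf144a to Ltbp2 (0.979), Mxra8 to Tgfbr3 and Bach2 to Tgfbr1 (0.976 each), and Sap130 to Ltbp3 (0.964). The highest r that a gene had with any other had a median of 0.97 over all 10979 genes and a 95th percentile of 0.991. The r of Ltbp1 with Col8a1 and that of Tgfb3 with Vcan lay above that percentile, that of Ltbp4 with Sbk1 at it, and the other closest genes below it.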
